A study of Mus musculus with 24 samples.

Results

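The cell cycle genes described here are 51 genes chosen by name, of 55401 in the deposited count table, as genes that mark DNA replication, mitosis or entry into the cycle. They fall into 15 S phase and replication genes, 23 mitotic genes and 13 genes of G1 entry and its regulators, and the first and second groups are reported apart. Resting T cells are in G0. Signals through the T cell receptor and CD28 induce Myc and D-type cyclins, which with Cdk4 and Cdk6 release E2F factors from retinoblastoma proteins. E2F then turns on cyclin E and the replication genes, and a later wave of transcription, held by the DREAM complex in resting cells and driven by Mybl2 and Foxm1 in cycling ones, turns on the mitotic genes. Levels of these transcripts in a culture therefore follow the share of cells in each phase and the rate at which each cell makes them.

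The libraries hold poly(A) RNA of CD4 and CD8 T cells from the spleen of C57BL/6 mice aged 12 weeks, sorted and then activated for 2 days with antibodies to CD3 and CD28. The study asks what Pou2af1, a coactivator of octamer-binding factors best known from B cells, does in such cells. The controls, here called wild type, lacked CD4-Cre; the genotype label lists them as Pou2af1 fl/fl and the sample title as +/+. CD4-Cre was paired with 1 floxed allele in heterozygotes and with 2 in knockouts. CD4-Cre was thus present in heterozygotes and knockouts alone, so the allele and the recombinase cannot be told apart in a comparison with wild type. This Cre is driven by Cd4 regulatory elements and acts in the thymus at the stage that carries both coreceptors, so it deletes in CD4 and CD8 cells alike. Each of the 6 groups, 2 cell types by 3 genotypes, holds 4 libraries numbered 1 to 4. The labels do not say that a number marks an animal, so each p-value reflects the spread among samples, and that spread may in part be technical. By Xist and Ddx3y each group held libraries of both sexes. Within a genotype the sex of a number was the same in CD4 and CD8 cells. Whether such libraries share an animal is not stated.

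Each library held 11.9 to 21.8 megacounts in genes, and all 51 genes passed the filter on low counts in each fit, with 216 to 38588 counts per gene and library. Pou2af1 stood at 28.5 to 49.3 CPM (counts scaled to library size with TMM factors) in CD4 wild type, 15.6 to 24.7 in CD4 heterozygotes and 1.30 to 3.78 in CD4 knockouts, and at 21.9 to 35.1, 13.4 to 16.4 and 0.759 to 2.43 CPM in the CD8 groups in the same order. Cd4 itself was 444 to 541 CPM in CD4 libraries and 0.212 to 1.74 CPM in CD8 libraries, and Cd8a was 639 to 766 CPM in CD8 and 0 to 0.667 CPM in CD4 libraries. Sums over 5 B cell markers were 6.06 to 29.2 CPM, over 5 myeloid markers 1.28 to 4.25 CPM and over 4 NK cell markers 0 to 0.91 CPM. These are bulk cultures, in which fewer cells of a phase and less RNA per cell cannot be told apart.

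The genes were expressed at widely different levels but varied little between libraries. Per kilobase of exon, and with SDs over 12 libraries here and in the rest of the paragraph, Top2a, which untangles DNA before chromosomes part, stood highest in CD4 cells at 182 ± 13.9 CPM per kb, followed by Mki67, the proliferation marker Ki-67, at 173 ± 7.47. In CD8 cells their order was the reverse, with Mki67 at 193 ± 8.74 and Top2a at 187 ± 12.1 CPM per kb, so these neighbours differed by less than the SD of Top2a. Pcna, the sliding clamp of DNA polymerase, and Mcm6 and Mcm4, subunits of the replicative helicase, came next at 127 ± 7.96, 112 ± 12.1 and 111 ± 12.1 CPM per kb in CD4 and 142 ± 7.53, 142 ± 10.8 and 129 ± 12.6 in CD8 cells. The lowest were E2f1 at 8.22 ± 1.34 and 8.12 ± 0.876, Gins2, a helicase cofactor, at 8.02 ± 1.24 and 9.0 ± 1.1, and Cdkn2c, an inhibitor of Cdk4 and Cdk6, at 7.8 ± 1.14 and 7.73 ± 0.889 CPM per kb in CD4 and CD8 cells. Each step among these 3 lies within the larger SD of the pair. Myc is left out of this order, since its identifier had no exon length in the annotation used. Over all 24 libraries the highest value of a gene was at most 2.23 times its lowest, in Cdkn1b, 2.07 times in Cdk6 and 1.98 times in Cdc20. Uniquely counted reads of named pseudogene copies came to at most 1.95% of the parent gene's, for Pcna.

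**Figure D1:**
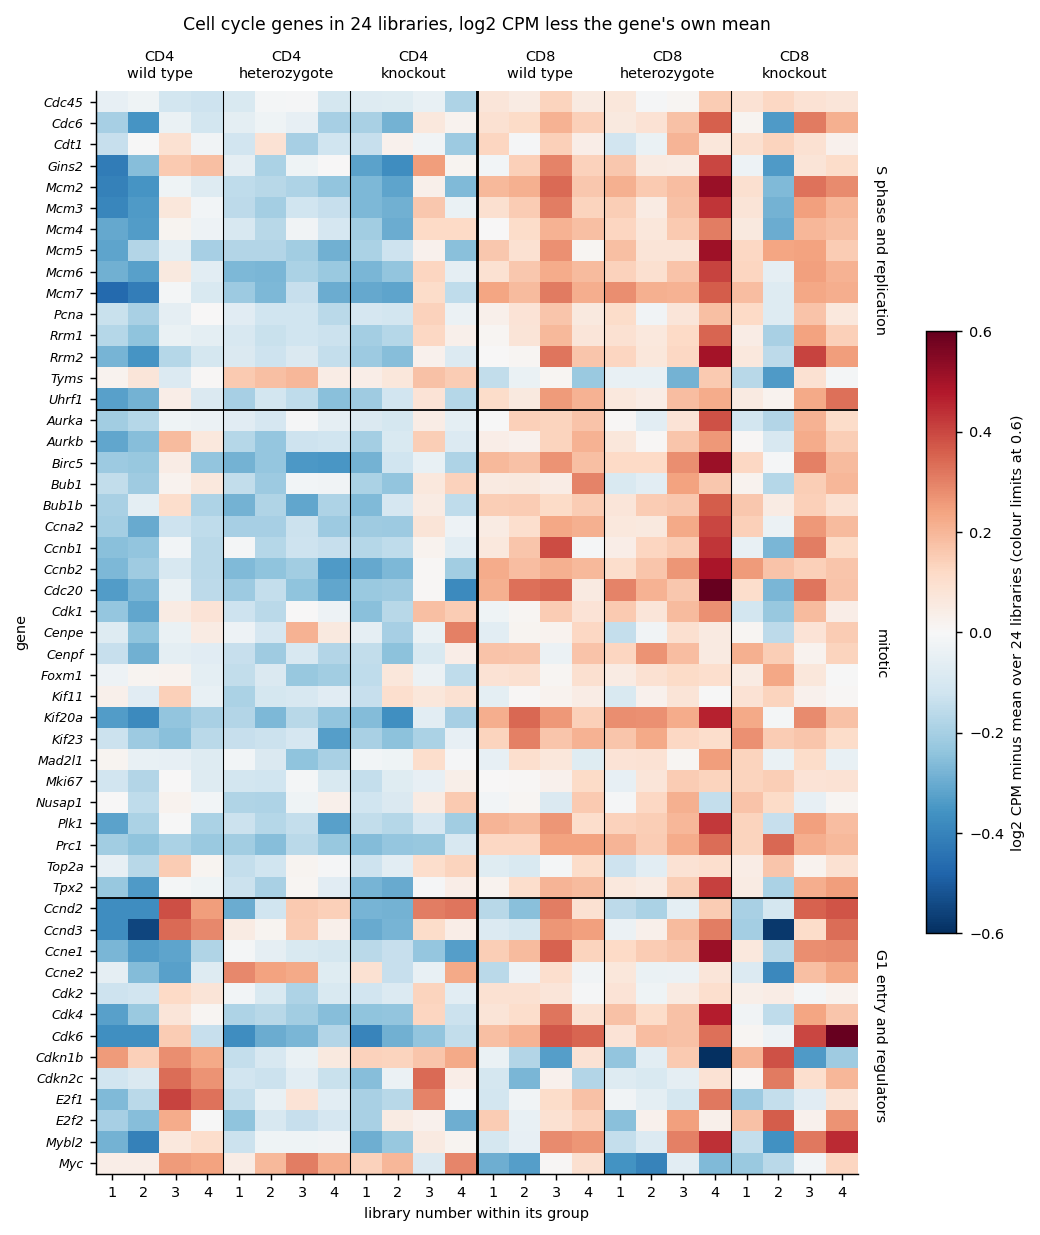
Each cell is 1 gene (rows, grouped by phase) in 1 library (columns, numbered 1 to 4 within 6 groups), coloured by log2 CPM less the gene's own mean over 24 libraries. CD4 libraries are mostly below and CD8 libraries mostly above the mean for S phase and mitotic genes, and Ccnd2, Ccnd3 and Mybl2 are higher in libraries 3 and 4 of most groups.

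Promoters of these genes were searched for 3 sequence elements that the literature names for S phase and mitotic genes. Some are printed to show the letters for genes whose values follow. No link between an element and a change was tested. Genes called between the cell types in all 3 genotypes included some with a match in the window read (Ccnb2, Prc1) and some without (Birc5, Ccne1). Genes called in none likewise included some with matches (Top2a, Kif11) and Nusap1 without. RefSeq promoter entries (GRCm38.p6) matched 41 of the 51 genes by symbol. The start lay within 100 bases of the gene's 5' end in the count table for 33 of them. It lay farther for the others, up to 2408 bases for Cdk6, so some windows may not precede the start in use. In the 250 bases before the start, on either strand, TTTGAA (the CHR element bound by DREAM and the Mybl2 complex) was found in 6 of 18 mitotic, 2 of 13 S phase and 0 of 10 G1 promoters, against 10.8% of 9444 promoters of all genes tested. CCAAT (bound by NF-Y) was in 15 of 18 mitotic, 10 of 13 S phase and 3 of 10 G1 promoters, against 37.3% of all. TTTNNCGC (a loose form of the core read by E2F, with any letter at N) was in 5 of 13 S phase, 1 of 18 mitotic and 2 of 10 G1 promoters, against 7.57%. Matches of different motifs overlapped in 0 member promoters, and matches of the same motif overlapped in 2. A match is a description of the letters, not a measured site. The 160 bases before the start are shown on the gene's own strand for mitotic cyclin B2, the mitotic kinase Plk1, the spindle midzone protein Prc1, the mitotic kinase Cdk1, Top2a, the helicase subunits Mcm5 and Mcm6, the replication-coupled methylation factor Uhrf1 and cyclin E1. Capitals mark matches of the 3 motifs on either strand, and Ccne1 has none.
Ccnb2, chr9:70421555-70421714, minus strand: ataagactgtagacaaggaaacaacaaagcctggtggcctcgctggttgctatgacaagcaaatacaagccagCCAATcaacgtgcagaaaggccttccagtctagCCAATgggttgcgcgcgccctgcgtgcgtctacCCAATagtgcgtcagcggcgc
Plk1, chr7:122159275-122159434, plus strand: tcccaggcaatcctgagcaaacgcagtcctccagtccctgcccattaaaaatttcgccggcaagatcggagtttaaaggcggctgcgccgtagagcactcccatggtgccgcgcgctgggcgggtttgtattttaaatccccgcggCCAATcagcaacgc
Prc1, chr7:80294291-80294450, plus strand: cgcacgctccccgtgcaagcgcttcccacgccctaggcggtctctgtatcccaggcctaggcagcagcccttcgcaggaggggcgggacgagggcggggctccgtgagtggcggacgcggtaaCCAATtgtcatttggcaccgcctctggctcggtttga
Cdk1, chr10:69352913-69353072, minus strand: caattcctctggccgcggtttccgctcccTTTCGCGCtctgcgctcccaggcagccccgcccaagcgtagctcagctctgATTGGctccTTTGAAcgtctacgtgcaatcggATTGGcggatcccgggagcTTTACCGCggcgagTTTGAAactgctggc
Top2a, chr11:99024190-99024349, minus strand: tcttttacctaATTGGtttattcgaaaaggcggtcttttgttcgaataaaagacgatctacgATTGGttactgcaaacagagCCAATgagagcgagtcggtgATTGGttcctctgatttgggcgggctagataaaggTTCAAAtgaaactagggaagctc
Mcm5, chr8:75109349-75109508, plus strand: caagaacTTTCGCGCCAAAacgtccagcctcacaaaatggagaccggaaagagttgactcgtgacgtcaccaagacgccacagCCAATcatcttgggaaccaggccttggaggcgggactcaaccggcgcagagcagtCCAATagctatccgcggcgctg
Mcm6, chr1:128359706-128359865, minus strand: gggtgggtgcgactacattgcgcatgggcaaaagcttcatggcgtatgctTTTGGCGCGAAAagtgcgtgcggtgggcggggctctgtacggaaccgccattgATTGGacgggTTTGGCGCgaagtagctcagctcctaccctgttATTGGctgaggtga
Uhrf1, chr17:56303177-56303336, plus strand: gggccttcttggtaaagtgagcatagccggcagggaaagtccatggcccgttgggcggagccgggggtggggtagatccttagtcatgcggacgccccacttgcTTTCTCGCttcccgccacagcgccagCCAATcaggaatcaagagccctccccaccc
Ccne1, chr7:38107491-38107650, minus strand: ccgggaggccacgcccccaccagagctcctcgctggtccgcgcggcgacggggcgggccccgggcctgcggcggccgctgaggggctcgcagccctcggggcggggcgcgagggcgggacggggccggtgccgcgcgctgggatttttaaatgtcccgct

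The genotypes showed no called difference in the 51 cell cycle genes in the main fits. In a wider list, given below, 1 gene (Cdkn1a) was called. Between genotypes within a cell type, 0 of the 51 genes passed an adjusted p of 0.05 by edgeR's quasi-likelihood test in any of the 6 comparisons. The share of all genes called was 0.0708% for CD4 knockout against wild type, 0.0865% for CD4 heterozygote against wild type and 0.0157% for CD4 knockout against heterozygote, and 0.0634%, 0.0634% and 0.0159% for the same comparisons in CD8, so counts of 0 lie near the background. DESeq2 called 1 gene, Cdkn1b, in CD4 heterozygotes against wild type and 0 in the other 5 comparisons. Unadjusted p under 0.05 was reached by 0, 5 and 4 of the 51 in CD4 and by 1, 0 and 2 in CD8, in that order. For knockout against wild type the log2 differences of the 51 genes ran from -0.12 to 0.21 (median SE 0.08) in CD4 and from -0.18 to 0.29 (median SE 0.088) in CD8. Their medians in CD4 were 0.053 for S phase, 0.012 for mitotic and -0.03 for G1 genes, and in CD8 -0.023, -0.026 and 0.0069, beside -0.0059 and 0.0026 for all genes tested. The changes of knockout between the cell types also differed for 0 of 51 genes (0.00753% of all genes called, 1 of the 51 at unadjusted p under 0.05), and those of heterozygosity for 0 of 51 (0.00753% called, 3 of the 51), and DESeq2 called 0 and 0. Differences in heterozygotes as large as -0.29 for Cdkn1b and 0.34 for Ccne2 in CD4 did not pass, so changes of that size were not always detectable here.

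Within these comparisons S phase and mitotic genes of lowest p all missed the threshold. In CD4 knockout against wild type the values were 0.10 (SE 0.054) for thymidylate synthase Tyms, 0.089 (SE 0.069) for the ribonucleotide reductase subunit Rrm2, 0.10 (SE 0.068) for cyclin A2 and 0.066 (SE 0.067) for cyclin B1. In CD8 knockout against wild type they were -0.18 (SE 0.11) for Gins2, -0.093 (SE 0.068) for Mcm7, 0.10 (SE 0.069) for Top2a and 0.076 (SE 0.058) for Mki67. Heterozygotes against wild type gave 0.13 (SE 0.054) for Tyms, 0.10 (SE 0.069) for Rrm2, -0.16 (SE 0.061) for Foxm1, a forkhead factor of mitotic genes, and -0.14 (SE 0.065) for the spindle motor Kif11 in CD4. In CD8 the same comparison gave 0.08 (SE 0.088) for Mcm5, 0.066 (SE 0.088) for Rrm1, 0.11 (SE 0.08) for Cdk1 and 0.093 (SE 0.067) for the spindle checkpoint gene Mad2l1. All of these adjusted p-values were 0.522 or more.

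The lowest p between genotypes belonged to Cdkn1b, which encodes p27, the inhibitor that holds resting T cells out of the cycle. Cdkn1b in CD4 libraries 1 to 4 stood at 132, 122, 134 and 129.6 CPM in wild type, 100.1, 104, 108 and 115 in heterozygotes and 122, 121, 124 and 129.7 in knockouts. The 4 CD4 heterozygous libraries lay below all 8 libraries of the other CD4 genotypes. Heterozygotes differed from wild type by -0.29 (SE 0.054, adjusted p = 0.118) on the log2 scale and knockouts from heterozygotes by 0.22 (SE 0.054, adjusted p = 0.9999), while knockouts differed from wild type by -0.066 (SE 0.054, adjusted p = 0.9998). With the library number as a block the first of these passed at an adjusted p of 0.0404, the 1 gene of 51 that did (0.354% of all genes). In CD8 cells Cdkn1b was 108, 97.8, 87.9 and 118 CPM in wild type, 93.8, 106, 123 and 64.7 in heterozygotes and 127, 144, 87.5 and 95.5 in knockouts, and the 3 genotypes overlapped.

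Cyclin E, the partner of Cdk2 at the start of S phase, was next. Ccne2 in CD4 libraries was 116, 100.3, 95.7 and 114 CPM in wild type, 147, 142, 141 and 114 in heterozygotes and 128, 109, 116 and 141 in knockouts, and in CD8 libraries 107, 118, 129 and 118 CPM in wild type, 126, 117, 117 and 126 in heterozygotes and 113, 91.9, 136 and 141 in knockouts. CD4 heterozygous library 4 lay within the wild-type range and the other 3 above it, and the CD8 genotypes overlapped. The CD4 heterozygote difference of Ccne2 was 0.34 (SE 0.098, adjusted p = 0.357). Ccne1 was 65.7, 62.9, 63.7 and 70.0 CPM in wild type, 78.8, 76.5, 74.6 and 73.8 in heterozygotes and 71.0, 72.1, 67.7 and 63.1 in knockouts in CD4 and 88.0, 90.5, 101 and 87.0 CPM in wild type, 86.3, 88.4, 89.2 and 113 in heterozygotes and 82.8, 70.7, 96.5 and 96.8 in knockouts in CD8 libraries. All 4 CD4 heterozygous libraries lay above all CD4 wild-type and knockout libraries, by 0.20 (SE 0.06, adjusted p = 0.368) against wild type, which did not pass. The largest value for knockout against wild type in CD8 was that of Cdkn2c, at 19.2, 17.1, 21.1 and 18.3 CPM in wild type, 19.6, 19.4, 19.96 and 22.0 in heterozygotes and 20.8, 25.7, 22.2 and 23.7 in knockouts, a difference of 0.29 (SE 0.09, adjusted p = 0.987) in which knockout library 1 lay inside the wild-type range.

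**Figure D2:**
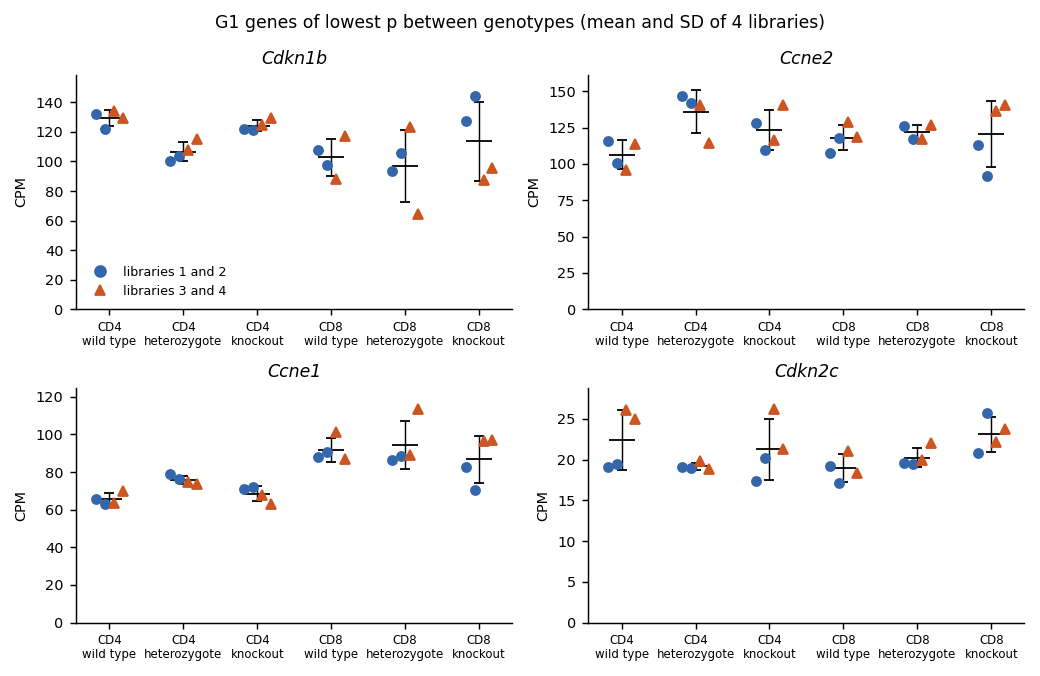
CPM (linear axis from 0) of Cdkn1b, Ccne2, Ccne1 and Cdkn2c in each of 24 libraries by group; circles are libraries 1 and 2, triangles libraries 3 and 4, and bars the mean and SD of 4. Cdkn1b is lower in CD4 heterozygotes, at 100.1 to 115 CPM, than in CD4 wild type at 122 to 134 CPM, and none of the 4 genes passed the adjusted test between genotypes.

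CD8 cells held more of many S phase and mitotic transcripts than CD4 cells. In wild type 25 of 51 genes were called by edgeR's quasi-likelihood test, all higher in CD8 (14.7% of all genes were called higher and 31.2% either way). In heterozygotes 29 were called, 28 higher and 1 lower (17.1% and 17.8% of all genes, 34.9% either way), and in knockouts 18, all higher (11.0% and 24.1% either way). With the CD4 and CD8 libraries of 1 genotype and number paired as a block, 1 gene, Myc, was called lower in each genotype. Genes called in all 3 numbered 15, which is 60% of the wild-type calls, 51.7% of the heterozygote calls and 83.3% of the knockout calls, and all 15 were higher (8.04% of all genes were called higher in all 3). In at least 1 genotype 33 were called (44.2% of all genes). Log2 differences lay above 0 in all 3 genotypes for 40 of the 51 (36.5% of all genes) and below 0 in all 3 for 3. The sum of T cell markers was 1360 to 1640 CPM in CD4 and 1670 to 1980 CPM in CD8 libraries. Its members went both ways. By median, Thy1 (204 CPM in CD4 and 646 in CD8), Cd3g, Cd3e and Cd3d were higher in CD8. Cd5 (561 and 285 CPM) and Cd247 were lower. Mitochondrial genes took 2.75% to 3.28% of gene counts in CD4 and 3.34% to 4.14% in CD8 libraries. The part of these markers and of mitochondrial genes in the result was not tested.

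The calls rest unevenly on the library numbers. With libraries 1 and 2 alone 36, 23 and 20 genes were called in wild type, heterozygotes and knockouts (33.6%, 30.6% and 24.5% of all genes either way), and with libraries 3 and 4 alone 9, 32 and 10 (21.1%, 29.3% and 19.8% either way), so that wild type and knockouts then lay at or below the background share either way. Those 9 and 10 calls were all higher in CD8. The share of all genes called higher in these fits is not given. Without CD4 knockout library 1 the knockout count was 11, for which no share of all genes is given.

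**Figure D3:**
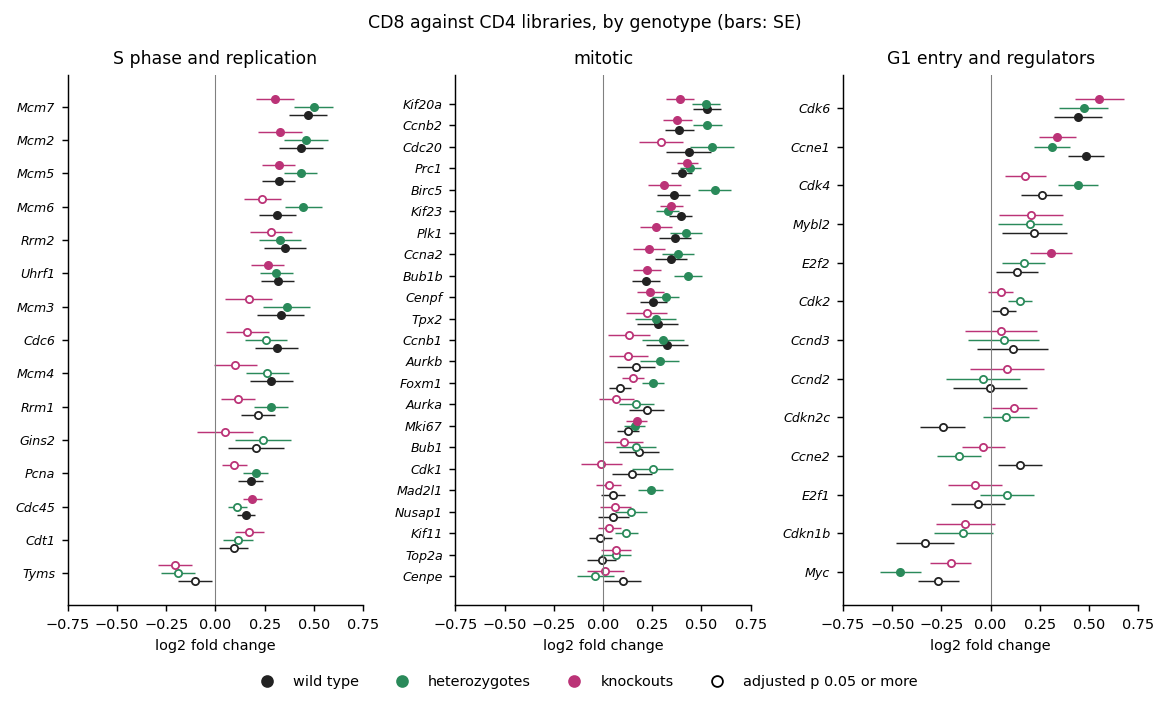
Log2 fold change (x axis) of CD8 against CD4 libraries for each gene (y axis) in wild type, heterozygotes and knockouts, 4 libraries a side, with bars for 1 SE; filled points passed an adjusted p of 0.05 by edgeR. Most S phase and mitotic genes lie right of 0 in all genotypes, filled or open, while Myc, Cdkn1b and Tyms lie left.

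Among S phase genes 11 of 15 were called higher in wild type, 9 in heterozygotes and 5 in knockouts, with median log2 differences of 0.31, 0.28 and 0.17 beside -0.015, 0.0098 and -0.0026 for all genes. Mcm2, Mcm5, Mcm7 and Uhrf1 were called in all 3 genotypes. The knockout calls of Mcm2 and Mcm7 were lost in 7 of 14 alternative fits each. That of Uhrf1 was lost in 5 of 14 and that of Mcm5 in 1 of 14. Mcm2 in CD4 libraries was 177, 184, 231 and 223 CPM in wild type, 212, 209, 207 and 199.7 in heterozygotes and 195, 189, 240.4 and 196 in knockouts. In CD8 libraries it was 269, 273, 297 and 263 CPM in wild type, 273, 262, 267 and 336 in heterozygotes and 252, 196, 295 and 286 in knockouts. Knockout library 2 of the CD8 cells is the exception that overlaps the CD4 range, and the differences were 0.43 (SE 0.11, adjusted p = 0.00547) in wild type, 0.46 (SE 0.11, adjusted p = 0.0029) in heterozygotes and 0.33 (SE 0.11, adjusted p = 0.0378) in knockouts. Mcm5 ran at 218, 241, 260.2 and 237 CPM in wild type, 240.4, 241, 235 and 222 in heterozygotes and 238, 249, 276 and 228 in knockouts among CD4 cells. Among CD8 cells it ran at 304, 289, 328 and 273 CPM in wild type, 307, 286, 287 and 387 in heterozygotes and 296, 319, 321 and 302 in knockouts. Its groups did not overlap within any genotype, with differences of 0.32 (SE 0.084), 0.43 (SE 0.084) and 0.32 (SE 0.084). Mcm7 had the largest S phase differences in wild type and heterozygotes, 0.47 (SE 0.099, adjusted p = 0.000986) and 0.50 (SE 0.099, adjusted p = 0.000445), and 0.30 (SE 0.099, adjusted p = 0.0286) in knockouts. Uhrf1 differed by 0.32 (SE 0.084), 0.31 (SE 0.084) and 0.26 (SE 0.084) in the same order.

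Other replication genes were called in fewer genotypes. Pcna was 292, 280.4, 309 and 321 CPM in wild type, 306, 296, 296 and 287 in heterozygotes and 299.5, 298, 353 and 314 in knockouts in CD4 libraries. It was 328, 339, 360.2 and 334 CPM in wild type, 347, 316, 338 and 364 in heterozygotes and 348, 304, 362 and 336 in knockouts in CD8 libraries. The wild-type and heterozygous groups did not overlap and the knockouts did, with differences of 0.18 (SE 0.064, adjusted p = 0.0384), 0.20 (SE 0.064, adjusted p = 0.0169) and 0.10 (SE 0.064, adjusted p = 0.313). Rrm2, the regulated subunit of the enzyme that makes deoxynucleotides, was 257, 244, 277 and 289.8 CPM in wild type, 293, 286, 293 and 282 in heterozygotes and 268, 261, 318 and 294 in knockouts in CD4 cells. In CD8 cells Rrm2 was 312, 314, 389.5 and 349 CPM in wild type, 341, 327, 340.1 and 441 in heterozygotes and 326, 279, 413 and 370.4 in knockouts. Again only the knockouts overlapped among the 3 genotypes, and Rrm2 was called in wild type and heterozygotes, at 0.35 (SE 0.11) and 0.33 (SE 0.11), but not in knockouts, at 0.28 (SE 0.11, adjusted p = 0.0593). Cdc45, which links helicase and polymerase, had a small difference with small errors, 0.15 (SE 0.047, adjusted p = 0.0156) in wild type and 0.19 (SE 0.047, adjusted p = 0.00516) in knockouts, and was the 1 S phase gene whose 12 CD8 libraries all lay above its 12 CD4 libraries (4.64% of all genes did so). Mcm6 was called in wild type and heterozygotes, at 0.31 (SE 0.094) and 0.45 (SE 0.094), and Rrm1 in heterozygotes at 0.28 (SE 0.087).

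Tyms went the other way without passing. Tyms was 110.2, 114, 103 and 109 CPM in wild type, 121, 123, 125 and 112 in heterozygotes and 112, 114, 123 and 121 in knockouts in CD4 libraries. It was 98.0, 106, 109.6 and 93.2 CPM in wild type, 105, 106, 89.4 and 121 in heterozygotes and 96.8, 86.0, 116 and 108 in knockouts in CD8 libraries. The ranges overlapped in each genotype, and the differences were -0.10 (SE 0.086, adjusted p = 0.385), -0.19 (SE 0.086, adjusted p = 0.089) and -0.21 (SE 0.086, adjusted p = 0.0848).

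Of the mitotic genes 12 of 23 were called higher in wild type, 16 in heterozygotes and 10 in knockouts, and none lower, with median log2 differences of 0.22, 0.29 and 0.17. Birc5, Bub1b, Ccna2, Ccnb2, Cenpf, Kif20a, Kif23, Plk1 and Prc1 were called in all 3. Prc1, which bundles the midzone microtubules in anaphase, showed the lowest p among them. Prc1 in CD4 libraries stood at 121, 118, 122 and 119 CPM in wild type, 120.5, 117, 124 and 119 in heterozygotes and 116, 119, 119 and 130.3 in knockouts. In CD8 libraries it stood at 152, 152, 164 and 165 CPM in wild type, 160.3, 155, 163 and 176 in heterozygotes and 153, 177, 162 and 159.6 in knockouts. All 12 CD8 libraries lay above all 12 CD4 libraries, and the differences were 0.40 (SE 0.054, adjusted p = 7.03e-06), 0.44 (SE 0.054, adjusted p = 1.51e-06) and 0.43 (SE 0.054, adjusted p = 3.12e-06). Kif20a and Kif23, motors of the midzone and of cytokinesis, also had all CD8 above all CD4 libraries, with 0.53 (SE 0.072), 0.52 (SE 0.072) and 0.39 (SE 0.072) for Kif20a and 0.39 (SE 0.058), 0.33 (SE 0.058) and 0.35 (SE 0.058) for Kif23. The fourth such gene was cyclin B2, a partner of Cdk1. Ccnb2 was 60.5, 63.0, 68.3 and 65.3 CPM in wild type, 60.7, 61.7, 63.1 and 57.8 in heterozygotes and 59.0, 60.5, 73.3 and 63.1 in knockouts in CD4 cells. It was 85.1, 82.9, 84.6 and 83.6 CPM in wild type, 78.6, 82.0, 87.6 and 103 in heterozygotes and 87.1, 82.3, 80.7 and 82.0 in knockouts in CD8 cells. Heterozygous library 4 was the highest CD8 library and knockout library 3 the highest CD4 library, and the differences were 0.39 (SE 0.073, adjusted p = 0.00038), 0.53 (SE 0.074, adjusted p = 9.11e-06) and 0.38 (SE 0.074, adjusted p = 0.000594).

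Kinases and checkpoint genes were called higher in some or all genotypes. Plk1 stood at 81.8, 89.6, 102 and 89.6 CPM in wild type, 93.6, 90.9, 92.8 and 81.7 in heterozygotes and 92.2, 90.9, 95.2 and 88.6 in knockouts in CD4 libraries. It stood at 118, 117, 123 and 110.0 CPM in wild type, 112, 113, 117 and 137 in heterozygotes and 112, 92.9, 121 and 116 in knockouts in CD8 libraries. Knockout library 2 was the 1 CD8 library inside the range of its CD4 counterparts, and the differences were 0.36 (SE 0.081), 0.42 (SE 0.081) and 0.27 (SE 0.081). Cdc20, which activates the anaphase-promoting complex, was 77.6, 80.9, 95.2 and 87.8 CPM in wild type, 84.2, 88.5, 82.6 and 78.7 in heterozygotes and 83.7, 84.4, 98.3 and 74.9 in knockouts in CD4 cells. In CD8 cells Cdc20 was 113, 123, 124 and 101 CPM in wild type, 120.2, 113, 109.5 and 148 in heterozygotes and 105, 80.9, 122 and 110.1 in knockouts. The knockouts overlapped through CD8 library 2, and the gene was called in wild type and heterozygotes, 0.43 (SE 0.11, adjusted p = 0.0055) and 0.55 (SE 0.11, adjusted p = 0.000587), but not in knockouts, 0.29 (SE 0.11, adjusted p = 0.0617). Ccnb1 stood at 74.0, 74.6, 87.0 and 78.5 CPM in wild type, 87.2, 78.1, 80.6 and 79.7 in heterozygotes and 78.2, 79.1, 89.0 and 84.1 in knockouts in CD4 libraries. It stood at 92.0, 98.7, 115 and 87.5 CPM in wild type, 90.3, 96.0, 97.5 and 118 in heterozygotes and 85.2, 72.7, 109 and 95.3 in knockouts in CD8 libraries. Wild type and heterozygotes did not overlap, and Ccnb1 was called there, at 0.33 (SE 0.11) and 0.30 (SE 0.11), whereas knockouts overlapped at 0.13 (SE 0.11, adjusted p = 0.405). Birc5 (survivin), of the chromosomal passenger complex, gave 0.36 (SE 0.083), 0.57 (SE 0.084) and 0.31 (SE 0.084), and the checkpoint kinase Bub1b gave 0.22 (SE 0.071), 0.43 (SE 0.072) and 0.22 (SE 0.072).

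The most abundant mitotic genes had small differences. Mki67 was 1699, 1627, 1842 and 1743 CPM in wild type, 1704, 1693, 1822 and 1726 in heterozygotes and 1665, 1745, 1777 and 1881 in knockouts in CD4 libraries. It was 1840, 1846, 1871 and 1990 CPM in wild type, 1774, 1932, 2040 and 2017 in heterozygotes and 2017, 2036, 1946 and 1952 in knockouts in CD8 libraries. Its ranges overlapped in wild type and heterozygotes and were apart in knockouts, with differences of 0.13 (SE 0.054, adjusted p = 0.0797), 0.16 (SE 0.054, adjusted p = 0.0253) and 0.17 (SE 0.054, adjusted p = 0.0255). Top2a was 1603, 1479, 1842 and 1676 CPM in wild type, 1501, 1526, 1678 and 1648 in heterozygotes and 1520, 1586, 1786 and 1817 in knockouts in CD4 libraries. It was 1576, 1555, 1646 and 1791 CPM in wild type, 1522, 1587, 1759 and 1779 in heterozygotes and 1712, 1862, 1681 and 1766 in knockouts in CD8 libraries. All 3 genotypes overlapped, with differences of -0.0072 (SE 0.075, adjusted p = 0.954), 0.065 (SE 0.075, adjusted p = 0.536) and 0.065 (SE 0.075, adjusted p = 0.581). Kif11, Nusap1 and the kinetochore motor Cenpe were called in no genotype either, with -0.014 (SE 0.059), 0.052 (SE 0.08) and 0.10 (SE 0.094) in wild type.

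G1 genes were split. Cyclin E1 and Cdk6 were called higher in CD8 in all 3 genotypes, Cdk4 in heterozygotes and E2f2 in knockouts, while Myc was called lower in heterozygotes. In wild type, heterozygotes and knockouts 15.4%, 30.8% and 23.1% of the 13 genes were called. These shares lie below the 31.2%, 34.9% and 24.1% of all genes called either way. Called higher were 2, 3 and 3 of them, where 14.7%, 17.1% and 11.0% of all genes were. The median log2 differences were 0.11, 0.084 and 0.084. Cdk6, a partner of D-type cyclins, was 159.9, 160, 229 and 188 CPM in wild type, 159.5, 168, 171 and 183 in heterozygotes and 157, 169, 175 and 186 in knockouts in CD4 cells. In CD8 cells Cdk6 was 234, 238, 267 and 263 CPM in wild type, 218, 234, 233 and 259.7 in heterozygotes and 208, 202, 273 and 324 in knockouts. CD8 lay above CD4 without overlap within each genotype, by 0.44 (SE 0.12, adjusted p = 0.00899), 0.47 (SE 0.12, adjusted p = 0.00495) and 0.55 (SE 0.12, adjusted p = 0.00208). Ccne1, printed above, differed by 0.48 (SE 0.092, adjusted p = 0.000392), 0.31 (SE 0.092, adjusted p = 0.0109) and 0.34 (SE 0.092, adjusted p = 0.00925), with CD8 knockout library 2 inside the CD4 range.

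Cdk4 ran at 203, 218, 267 and 256 CPM in wild type, 224, 227, 220.2 and 213 in heterozygotes and 215, 216, 279 and 232 in knockouts in CD4 cells. In CD8 cells Cdk4 was 269, 274, 317 and 271 CPM in wild type, 288, 274, 287 and 353 in heterozygotes and 251, 229, 299 and 286 in knockouts. Only the knockouts overlapped among the 3 genotypes, and the differences were 0.26 (SE 0.1, adjusted p = 0.0603), 0.44 (SE 0.1, adjusted p = 0.00198) and 0.18 (SE 0.1, adjusted p = 0.235). E2f2, an activating E2F factor, was 70.3, 67.7, 94.2 and 80.7 CPM in wild type, 68.3, 75.7, 73.5 and 75.3 in heterozygotes and 70.7, 83.5, 82.3 and 66.0 in knockouts in CD4 cells. In CD8 cells it was 89.7, 78.4, 86.1 and 88.8 CPM in wild type, 67.9, 82.2, 95.9 and 82.6 in heterozygotes and 91.1, 104, 82.2 and 97.3 in knockouts. Its ranges overlapped in each genotype and it was called in knockouts, by 0.31 (SE 0.11, adjusted p = 0.0389). Myc was 384, 384, 447 and 442 CPM in wild type, 386, 428, 463 and 435 in heterozygotes and 412, 430.0, 352 and 458 in knockouts in CD4 cells. Myc in CD8 cells was 306, 298, 376 and 400.2 CPM in wild type, 292, 284, 359 and 311 in heterozygotes and 320.3, 335, 369.8 and 409.8 in knockouts. The heterozygotes did not overlap, and the differences were -0.27 (SE 0.11, adjusted p = 0.0594), -0.46 (SE 0.11, adjusted p = 0.00178) and -0.20 (SE 0.11, adjusted p = 0.176). Cdkn1b was lower in CD8 wild type without overlap, by -0.33 (SE 0.15, adjusted p = 0.0922), which did not pass.

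A wider list of other cell cycle genes was read from the same fits. Of 41 other mitotic genes 24 were called higher and none lower in CD8 wild type, 27 higher and 2 lower in heterozygotes, and 15 higher and 1 lower in knockouts, where 31.2%, 34.9% and 24.1% of all genes were called either way. Racgap1, which works with Kif23 in cytokinesis, had the lowest p of that list in each genotype, at 0.53 (SE 0.048, adjusted p = 2.78e-08), 0.65 (SE 0.048, adjusted p = 9.76e-10) and 0.51 (SE 0.048, adjusted p = 4.81e-08). Of 30 other S phase genes 10, 15 and 7 were higher and none lower, so that wild type and knockouts lay near the share of all genes called either way, though above the 14.7% and 11.0% called higher. Among them was Wdhd1, a replisome factor, at 0.34 (SE 0.062), 0.31 (SE 0.063) and 0.24 (SE 0.063). Of 14 other G1 genes that passed the filter 1 was higher and 3 lower in wild type, 1 and 2 in heterozygotes and 0 and 1 in knockouts, which is below the share of all genes in each genotype. Cdkn1a (p21), the inhibitor induced by p53, was called lower in CD8 cells of each genotype, with differences of -0.36 (SE 0.11, adjusted p = 0.0185), -0.94 (SE 0.11, adjusted p = 1.6e-06) and -0.49 (SE 0.11, adjusted p = 0.00282), and was the 1 gene of the wider set called between genotypes, higher in CD4 heterozygotes than in CD4 wild type by 0.66 (SE 0.1, adjusted p = 0.0344).

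By library number, libraries 3 and 4 held more of many cell cycle transcripts than libraries 1 and 2 in both cell types. The numbers were put into these 2 sets with earlier results of the same libraries known, so the counts describe the libraries and are no independent support. With genotype in the fit, edgeR called 21 of 51 genes in CD4, all higher (17.9% of all genes were called higher and 34.8% either way), and 14 in CD8, all higher (8.98% and 17.8%). Genes called in both were 10, which is 47.6% of the CD4 and 71.4% of the CD8 calls (5.68% of all genes tested in both were called higher in both): Aurkb, Bub1, Ccna2, Ccnd2, Ccnd3, Cdk1, Cdk6, Mybl2, Rrm2 and Tpx2. CD4 and CD8 libraries of 1 number deviated together within a genotype, so these lists may not be independent. By an F test over all 4 numbers, which does not use these sets, 11 genes were called in CD4 (18% of all genes, so near the background) and 1, Mybl2, in CD8 (2.89%).

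Other measures moved with the numbers too, not all of them in both cell types. The summed level of the activation markers Il2ra, Tfrc, Cd69 and Cd44 was 2780 to 2990 CPM in CD4 libraries 1 and 2 and 3160 to 3630 in 3 and 4, and 2210 to 2760 against 3060 to 3530 CPM in CD8, without overlap. The genes of this sum are not given one by one by number. B cell marker sums in CD8 were 12.3 to 22.1 CPM in libraries 1 and 2 and 6.5 to 12.4 in 3 and 4. In CD4 they were 6.64 to 15.2 and 6.06 to 29.2 CPM, with the higher mean in libraries 3 and 4. T cell marker sums in CD8 were 1860 to 1980 CPM in libraries 1 and 2 and 1670 to 1850 in 3 and 4, without overlap. The CD4 sums overlapped, at 1420 to 1640 and 1360 to 1630 CPM. By Xist and Ddx3y, heterozygous libraries 1 and 2, wild-type library 3 and knockout library 2 of both cell types were female and all others male. The part of these in the result was not tested, although with sex as a term 26 genes were called in CD4 (39.9% of all genes) and 7 in CD8 (10.6%).

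**Figure D4:**
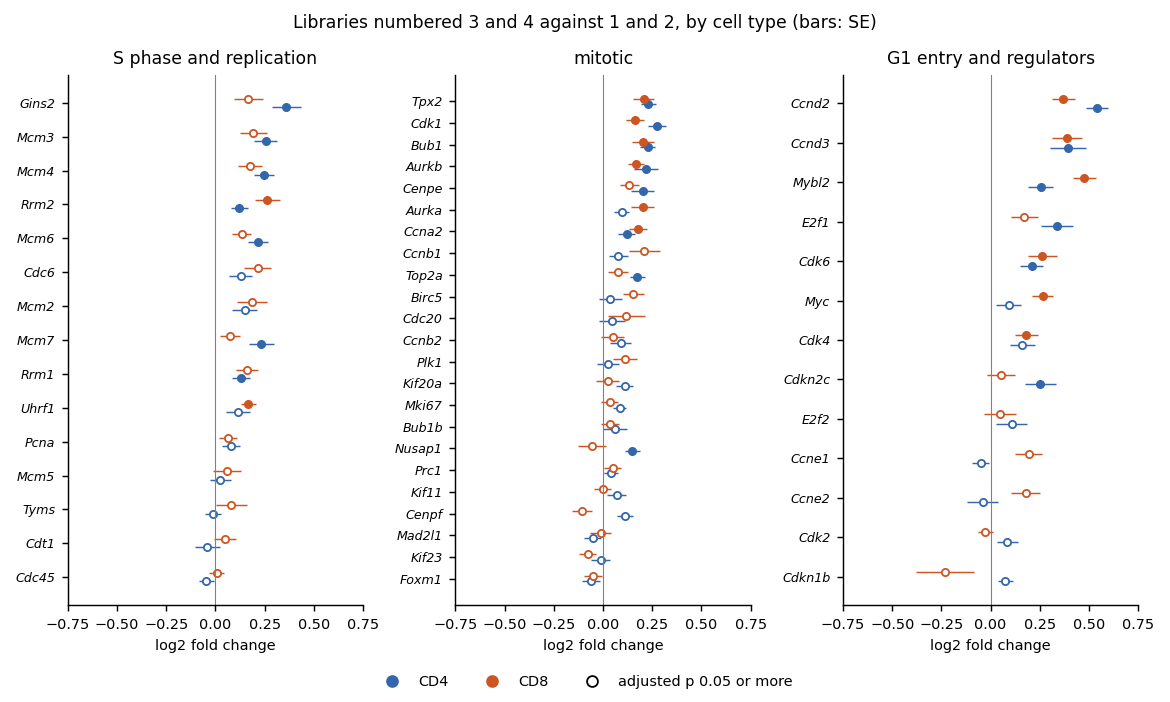
Log2 fold change (x axis) of libraries 3 and 4 against libraries 1 and 2 for each gene (y axis) in CD4 and in CD8 cells, 6 libraries a side with genotype in the fit, with bars for 1 SE; filled points passed an adjusted p of 0.05 by edgeR. Ccnd2 lies farthest right in CD4, at 0.54, and Mybl2 in CD8, at 0.48, and no called gene lies left of 0.

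The D-type cyclins, of which Ccnd2 had the largest difference in CD4 cells, link mitogen and cytokine signals to Cdk4 and Cdk6. Cyclin D2 in CD4 cells had a lowest, median and highest value of 602, 639 and 718 CPM in libraries 1 and 2 and 864, 948 and 1020 CPM in libraries 3 and 4. In CD8 cells they were 657, 691 and 726 CPM in libraries 1 and 2 and 749, 918 and 1014 CPM in libraries 3 and 4. Both cell types showed no overlap of the sets, as for 10 of the 51 genes in CD4 (8.41% of all genes) and 11 in CD8 (5.29%), and the differences were 0.54 (SE 0.055, adjusted p = 3.4e-05) in CD4 and 0.37 (SE 0.059, adjusted p = 0.00154) in CD8. By library, Ccnd2 was 603, 602, 1020 and 929 CPM in wild type, 636, 718, 871 and 864 in heterozygotes and 644, 643, 968 and 975 in knockouts in CD4 cells. It was 697, 657, 966 and 831 CPM in wild type, 702, 685, 749 and 869 in heterozygotes and 682, 726, 999.5 and 1014 in knockouts in CD8 cells. CD8 heterozygotes showed the smallest step. Ccnd3 stood at 83.1, 73.5, 136 and 131 CPM in wild type, 111, 109, 119.6 and 109.8 in heterozygotes and 87.4, 88.8, 116 and 111 in knockouts in CD4 libraries. In CD8 libraries Ccnd3 stood at 102, 100.1, 129 and 128 CPM in wild type, 105, 109.9, 123 and 133 in heterozygotes and 93.5, 72.1, 116 and 136 in knockouts. CD4 heterozygous libraries 3 and 4 lay close to 1 and 2, a difference from wild type that was not tested, and the sets overlapped in CD4 but not in CD8, with differences of 0.39 (SE 0.092, adjusted p = 0.00543) and 0.39 (SE 0.076, adjusted p = 0.00525).

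Other genes of the G1 group followed, among which Mybl2 is counted by the list chosen although it acts on later genes. Mybl2, the B-Myb factor of late S phase and mitotic genes, had a lowest, median and highest level of 36.4, 40.3 and 47.4 CPM in libraries 1 and 2 and 47.3, 49.4 and 51.9 CPM in libraries 3 and 4 in CD4 cells. In CD8 cells they were 37.4, 44.3 and 46.5 CPM in libraries 1 and 2 and 58.0, 59.8 and 65.8 CPM in libraries 3 and 4. CD4 libraries overlapped and CD8 libraries did not, with differences of 0.25 (SE 0.062, adjusted p = 0.00662) and 0.48 (SE 0.06, adjusted p = 0.000441). Cdk6 was called in both, at 0.21 (SE 0.059) and 0.26 (SE 0.072). E2f1, with 0.34 (SE 0.083), and Cdkn2c, with 0.25 (SE 0.079), were called in CD4, where CD8 gave 0.17 (SE 0.069, adjusted p = 0.105) and 0.053 (SE 0.072, adjusted p = 0.642). Myc, with 0.26 (SE 0.052), and Cdk4, with 0.18 (SE 0.057), were called in CD8, where CD4 gave 0.092 (SE 0.063, adjusted p = 0.281) and 0.16 (SE 0.063, adjusted p = 0.0614).

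Among S phase genes 7 of 15 were called in CD4 and 2 in CD8, with median log2 differences of 0.13 and 0.16 beside -0.0028 and -0.0058 for all genes. All were higher, where 17.9% of all genes were called higher in CD4 and 8.98% in CD8, and the CD8 count lies near that share. In CD4 the called genes were Gins2 at 0.36 (SE 0.076), Mcm3 at 0.26 (SE 0.058), Mcm4 at 0.25 (SE 0.05), Mcm7 at 0.23 (SE 0.064), Mcm6 at 0.22 (SE 0.051), Rrm1 at 0.13 (SE 0.046) and Rrm2 at 0.12 (SE 0.044). Their CD8 values were 0.17, 0.19, 0.18, 0.073, 0.13, 0.16 and 0.26, of which the last passed, at an adjusted p of 0.0162. Uhrf1 was called in CD8 at 0.17 (SE 0.038, adjusted p = 0.0107), with 0.11 (SE 0.06, adjusted p = 0.161) in CD4. Mcm5, called by cell type in each genotype, gave 0.024 (SE 0.054, adjusted p = 0.771) and 0.059 (SE 0.069, adjusted p = 0.587) by number.

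Mitotic genes gave 8 of 23 calls in CD4 and 6 in CD8, with medians of 0.089 and 0.076. All were higher, and the CD4 count equals the 34.8% of all genes called either way, while 17.9% were called higher; in CD8 the shares were 17.8% and 8.98%. Cdk1 had a lowest, median and highest value of 138, 149 and 157 CPM in libraries 1 and 2 and 168, 179 and 194 CPM in libraries 3 and 4 in CD4 cells. In CD8 cells these were 146, 170.5 and 191 CPM in libraries 1 and 2 and 176, 193 and 207 CPM in libraries 3 and 4. The sets were apart in CD4 and overlapped in CD8, with differences of 0.27 (SE 0.044, adjusted p = 0.000589) and 0.16 (SE 0.046, adjusted p = 0.03). Tpx2, which activates Aurora A on the spindle, gave 0.23 (SE 0.039) and 0.21 (SE 0.055), the checkpoint kinase Bub1 0.23 (SE 0.036) and 0.20 (SE 0.056), and Aurora B 0.22 (SE 0.06) and 0.17 (SE 0.039), all called in both. The CD8 calls were lost in 10 of 17 alternative fits for Cdk1, 7 of 17 each for Tpx2 and Bub1 and 2 of 17 for Aurora B. Top2a, at 0.17 (SE 0.036), Nusap1, at 0.15 (SE 0.039), and Cenpe, at 0.20 (SE 0.059), were called in CD4, and Aurka, at 0.20 (SE 0.058), in CD8. The 4 mitotic genes with all CD8 above all CD4 libraries did not pass by number in either cell type. Kif20a gave 0.11 (SE 0.043, adjusted p = 0.0673) in CD4 and 0.023 (SE 0.058, adjusted p = 0.816) in CD8, Prc1 0.041 (SE 0.035, adjusted p = 0.402) and 0.048 (SE 0.045, adjusted p = 0.486), Kif23 -0.011 (SE 0.049, adjusted p = 0.889) and -0.077 (SE 0.043, adjusted p = 0.219), and Ccnb2 0.089 (SE 0.051, adjusted p = 0.199) and 0.048 (SE 0.057, adjusted p = 0.587) in CD4 and CD8.

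The step between numbers was not shown to differ between the cell types for any of the 51 genes. The edgeR interaction called 0 of them (5.86% of all genes were called, and 5 of the 51 had an unadjusted p under 0.05), and DESeq2 called 1. The lowest p was that of Cenpf, a kinetochore protein, with 0.11 in CD4 and -0.11 in CD8 and a difference of -0.21 (SE 0.064, adjusted p = 0.0537). Ccne1 followed with 0.25 (SE 0.085, adjusted p = 0.0803), Mybl2 with 0.23 (SE 0.087, adjusted p = 0.114) and Nusap1 with -0.20 (SE 0.079, adjusted p = 0.132). Without CD8 heterozygous library 3 the count was 4, without CD8 wild-type library 4 it was 3, and without CD4 heterozygous library 1 or 4 it was 1. No share of all genes is given for these fits.

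The CD8 count by number changed with the libraries kept. It was 8 without heterozygous library 2, 9 without heterozygous library 1, knockout library 3, knockout library 4 or wild-type library 1, and 23 without heterozygous library 3. With all libraries the CD8 count was 14 (17.8% of all genes), and without all heterozygotes it was 6 (8.05%). The share of all genes thus fell with the count. In CD4 the count was 25 (34.7%) without heterozygotes. For the single libraries left out no share of all genes is given, so those counts are not set against a background.

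The wider set was read by number too, beside 34.8% of all genes called either way and 17.9% called higher in CD4, and 17.8% and 8.98% in CD8. Of 30 other S phase genes 16 were called higher and none lower in CD4 libraries 3 and 4, and 6 were higher and none lower in CD8, with Rfc3, a clamp loader subunit, at 0.53 (SE 0.062, adjusted p = 7.91e-05) and 0.33 (SE 0.071, adjusted p = 0.00859) and Dut, which removes dUTP, at 0.24 (SE 0.045, adjusted p = 0.00152) and 0.37 (SE 0.075, adjusted p = 0.00616). Of 41 other mitotic genes 7 were higher and 3 lower in CD4 and 4 higher and 1 lower in CD8, which is below the background either way in both cell types. Of 14 other G1 genes 7 were higher and 1 lower in CD4, and 2 higher and 2 lower in CD8. Rbl2 (p130), the pocket protein of resting cells, was called lower in both, at -0.20 (SE 0.043, adjusted p = 0.00306) and -0.58 (SE 0.05, adjusted p = 3.76e-05), and was the 1 gene of the wider set for which the cell types differed, by -0.37 (SE 0.061, adjusted p = 0.00169).

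By library, the median over a group's genes of log2 CPM less each gene's mean shows both patterns. For S phase genes it was -0.29, -0.28, -0.028 and -0.065 in CD4 wild-type libraries 1 to 4, -0.097, -0.14, -0.12 and -0.14 in heterozygotes and -0.21, -0.24, 0.11 and -0.052 in knockouts. In CD8 libraries it was 0.089, 0.092, 0.22 and 0.14 in wild type, 0.13, 0.065, 0.16 and 0.36 in heterozygotes and 0.077, -0.16, 0.23 and 0.18 in knockouts. CD4 heterozygotes did not show the step between libraries 2 and 3 that CD4 wild type and knockouts showed, which was not tested. For mitotic genes the medians were -0.22 to -0.01 in CD4 wild type, -0.18 to -0.12 in heterozygotes and -0.19 to 0.007 in knockouts, and 0.056 to 0.15, 0.068 to 0.27 and -0.013 to 0.16 in CD8. CD8 knockout library 2 was thus the lowest CD8 library and CD8 heterozygous library 4 the highest for both phases.

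**Figure D5:**
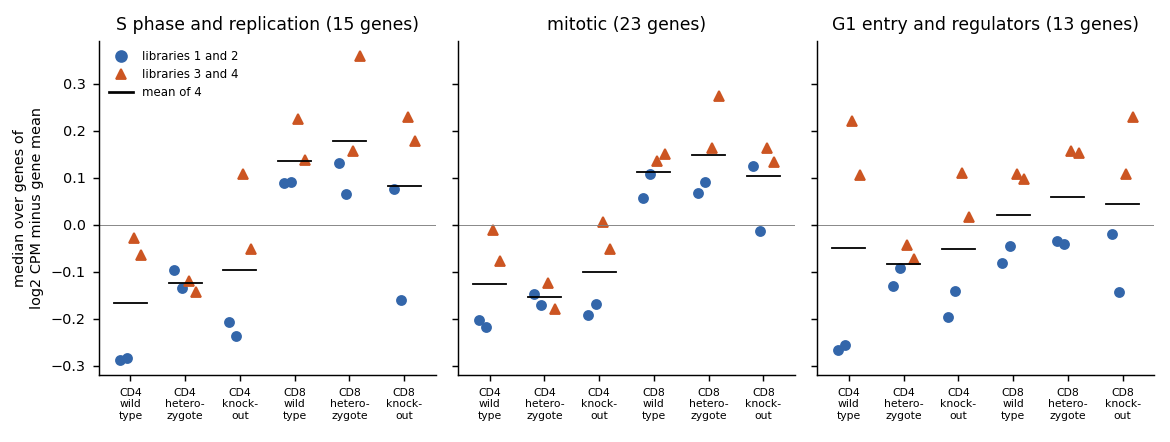
Median over the 15 S phase, 23 mitotic and 13 G1 genes (panels) of log2 CPM less each gene's mean over 24 libraries (y axis), for each library by group; circles are libraries 1 and 2, triangles libraries 3 and 4, and lines the mean of 4. S phase medians run from -0.29 to 0.11 in CD4 and from -0.16 to 0.36 in CD8 libraries, and G1 medians are higher in libraries 3 and 4 than in 1 and 2 of each group.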

How the data were processed

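Poly(A) RNA of 24 libraries was measured by sequencing. Whole-number counts per gene were deposited by the authors for 55401 genes; Trimmomatic 0.35, STAR 2.7.1a and GRCm38 are named, per the submitters' processing notes. Which annotation release and strand setting they used is not stated there, and overlapping genes cannot be told apart. Summary lines without a gene, 31.6% to 35.0% of entries, were left out. The deposited normalised table was not used. A count of 3 in a library was 0.138 to 0.251 CPM; such floors cover counting error only.

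In R 4.3.3 with edgeR 4.0.16, genes were kept by filterByExpr (count of 10), scaled by TMM and tested with the quasi-likelihood F test, 2-sided, with Benjamini-Hochberg adjustment over 12719 genes in CD4, 12612 in CD8 or 13288 in all libraries. Genotypes were compared within 12 libraries (9 residual degrees of freedom), and cell types over 24 (18). Libraries 3 and 4 were set against 1 and 2 with genotype as a term. Each SE was taken as the log2 fold change divided by the root of its F statistic. Alternatives were DESeq2 1.42.0, RLE factors, no filter, the replicate number as block, library set and sex as terms, each set alone and each library left out. Between genotypes the block was the number alone. Between cell types it paired the CD4 and CD8 libraries of 1 genotype and number. The code was tested on simulated data with known changes. A first criterion of recovery over genes of any count was missed by the difference of the heterozygote effect, through genes of low count, and was then replaced by recovery at the counts of the genes described here.

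Members, gene lists and tests were chosen with earlier results of these data known. The text names the called genes, at most 6 per phase and direction by lowest p, the 2 of lowest p where none was called, and a set of genes given by library; others were named after their values were seen. Same-numbered libraries deviated together in every pair between CD4 genotypes (correlations of 0.132 to 0.58) and between CD4 and CD8 of 1 genotype (0.147 to 0.451), but not in all pairs between CD8 genotypes. Of 36 pairs of libraries within groups the most alike had a chi-square of 2.78 per degree of freedom, so each pair differed by more than sampling noise. Exon lengths are from GENCODE M21 and promoters from RefSeq GRCm38.p6.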

Additional observations from a re-analysis of the deposited data

Results flagged for a closer look

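In 144 sets of 4 libraries (21 genes and 3 phase medians by 6 groups), 6 single libraries stood apart from the other 3 of their group by Dixon's test on the log2 scale, which is 4.17% where chance gives about 5%. In CD8 heterozygotes, library 4 was the high one for Mcm2, at 336.5 CPM against 262 to 273, for Rrm2, at 440.6 against 327 to 341, and for Ccne1, at 113.4 against 86.3 to 89.2 CPM. In CD4 knockouts, library 3 was high for Mcm2, at 240.4 CPM against 189 to 196. In CD4 heterozygotes, library 4 was low for Ccne2, at 114.3 CPM against 141 to 147. In CD8 wild type, library 3 was high for Cdk4, at 317.3 CPM against 269 to 274.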

How the results depend on the processing

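Of 76 calls of named genes, 1042 of 1160 alternative values kept direction and side of the threshold, 118 kept direction alone and 0 reversed. The losses were uneven. In knockouts CD8 against CD4 they included 7 of 14 alternatives each for Mcm2 and Mcm7 and 6 of 14 for E2f2. By set in CD8 they included 12 of 17 for Cdk4 and 10 of 17 each for Aurka and Cdk1, and in CD4 8 of 17 for Rrm1. Of 54 values that were not called, 16 of 1050 alternatives passed and 4 reversed: Mcm5 in CD8 heterozygotes against wild type ranged from -0.020 to 0.12 with 1 library left out, and with libraries 1 and 2 alone Pcna in CD4 knockouts against heterozygotes was -0.015, and the difference of the heterozygote effect was -0.069 for Mcm5 and -0.042 for Mcm6.

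In CD4 heterozygotes against wild type the 0 calls became 1 with DESeq2, 1 with the replicate block, 1 with library set as a term, 2 with set and sex and 3 with libraries 1 and 2 alone. CD8 against CD4 fell to 9 (wild type) and 10 (knockouts) with libraries 3 and 4 alone, and ranged from 11 to 22 in knockouts with 1 library left out. CD8 by set gave 7 with sex, 6 without heterozygotes and 8 to 23 with 1 library left out. By number, no filter gave 17 calls in CD4 and 6 in CD8, and sex 0 in CD8. The set difference gave 1 with DESeq2, 1 with no filter and 0 to 4 with 1 library left out. The cause was not tested. Where a count in this section has no share of all genes given above, it is not set against a background. The pairing of libraries changed no other call count by over 1.5 times: with the replicate block CD8 against CD4 gave 31, 33 and 24 calls, of which 1 in each genotype, Myc, was lower, at adjusted p of 0.00754, 0.000116 and 0.0434. These genes held 216 counts or more in each library, and log2 differences between genotypes of up to 0.34 did not pass. Whether depth limited their detection was not tested.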
